A study of Mus musculus with 41 samples.

Results

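The C/EBP (CCAAT/enhancer binding protein) genes Cebpa, Cebpb, Cebpd and Cebpg were followed through the RNA-seq libraries of fetal mouse lung cells collected at E18.5 with and without the synthetic glucocorticoid dexamethasone. They were taken as the rows with these 4 symbols in the 4 deposited count tables, and make up 4 of 24371 genes listed. C/EBP proteins bind DNA as pairs through a basic leucine zipper (bZIP) and switch on genes of fat storage, acute phase response and epithelial maturation. In mice Cebpb and Cebpd act early and Cebpa late in the making of fat cells, Cebpa is needed for the maturation of lung epithelium, and Cebpg, which lacks a strong activation domain, pairs with other bZIP proteins including ATF4. Glucocorticoids are long known to raise Cebpd RNA in several cell types.

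Bulk mesenchyme came from Twist2Cre;Rosa26mT/mG fetuses, in which Cre driven from the Twist2 locus turns membrane tomato off and membrane GFP on, so that GFP-positive, tomato-negative cells were those with a history of Twist2 expression. Dams received 1 mg/kg dexamethasone (4 pools) or saline (2 pools) at E18.5, lungs were taken after 2 h and pooled by genotype, and the GFP-positive cells were sorted. CD106 (VCAM1) was the second selection: 1 CD106+ library came from lungs given 1 mg/kg dexamethasone, with no time stated, and stood beside 2 CD106+ and 2 CD106- libraries for which the labels give no treatment. Single cells were captured on the C1 system from wild-type C57Bl6/J lungs 24 h after dams received 2 mg/kg dexamethasone (15 cells) or saline (11 cells) at E17.5, so the day of injection, dose and time after it differ from the pools. The labels do not say which libraries or cells came from separate litters, and p-values therefore cover library-to-library spread that may be technical.

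Library totals ran from 2220647 to 4224245 counts in the dexamethasone pools and from 1670896 to 2431420 in the saline pools, were 3790544 in the dexamethasone CD106+ library, and ran from 4987175 to 7133941 in CD106+ and from 5198705 to 6007400 in CD106- libraries. Levels below are CPM, the count scaled to a common library total, and are compared between libraries but not between genes, since transcript length was not used. Fkbp5, a direct glucocorticoid receptor target, had 176 to 260 CPM in the dexamethasone pools, against 28.7 and 40.7 CPM in the saline pools, and 49.6 CPM in the dexamethasone CD106+ library, against 12.6 and 35.5 CPM in CD106+ libraries. In the single cells the check went the other way: Fkbp5 reached 612 CPM in the highest dexamethasone cell and 1064 CPM in the highest saline cell, with a count in 5 of 15 dexamethasone cells and 7 of 11 saline cells, and Tsc22d3, a further receptor target, averaged 156 CPM in dexamethasone cells and 772 CPM in saline cells. Vcam1 had 551 and 687 CPM in CD106+ libraries, against 1.35 and 3.00 CPM in CD106- libraries. The 12 mesenchyme markers summed to 24714 to 35651 CPM in dexamethasone pools and 21429 and 27850 CPM in saline pools, while Twist2 itself stood at 0 to 0.901 CPM in them. The groups of pools also differed in sex: the Y-linked gene Ddx3y had 74.4 to 174 CPM in the 4 dexamethasone pools, against 0 and 1.20 CPM in the saline pools.

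The start regions of Cebpa and Cebpg are shown because the 2 genes are neighbours on chromosome 7. Cebpa (chr7:35119293-35121928) and Cebpg (chr7:35046422-35056566) are 62.7 kb apart in RefSeq GRCm38.p6, with 0 protein-coding genes between them. The 300 bases printed for each run 5′ to 3′ on the gene's own strand and are RefSeq sequence; the capitals mark the TATA box letters TATAAA in Cebpa, on the plus strand at chr7:35119043-35119342, and the CCAAT box letters, read here as ATTGG on the opposite strand, in Cebpg, on the minus strand at chr7:35056517-35056816.
Cebpa: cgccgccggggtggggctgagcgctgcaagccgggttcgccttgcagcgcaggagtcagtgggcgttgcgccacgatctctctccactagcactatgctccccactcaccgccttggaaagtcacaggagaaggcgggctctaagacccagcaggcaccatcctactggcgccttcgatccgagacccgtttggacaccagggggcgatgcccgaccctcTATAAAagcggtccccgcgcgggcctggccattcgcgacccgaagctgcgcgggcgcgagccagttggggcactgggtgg
Cebpg: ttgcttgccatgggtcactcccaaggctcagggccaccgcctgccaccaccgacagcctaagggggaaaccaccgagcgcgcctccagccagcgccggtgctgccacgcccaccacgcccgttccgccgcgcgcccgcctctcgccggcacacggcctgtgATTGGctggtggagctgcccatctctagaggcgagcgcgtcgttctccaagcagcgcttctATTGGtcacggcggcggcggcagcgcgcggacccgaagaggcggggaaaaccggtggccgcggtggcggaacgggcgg
A search of both strands found TATAAA 30 bases before the start of Cebpa, and this run of letters is in 13.6% of 32851 promoters of the same length. The letters CCAAT lay 89 and 28 bases before the start of Cebpg and are in 37.4% of promoters. The promoter of Cebpb (chr2:167688915-167690432) held TGACGC, a CRE-like run, in 3 places, against 7.40% of promoters with at least 1. None of the promoters of Cebpa, Cebpb and Cebpg held AGAACA, the letters of 1 arm of the glucocorticoid element, which are in 19.0% of promoters, and a match or its absence in this window says nothing of receptor binding. Cebpd is at chr16:15887286-15889545.

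Cebpd, the member classed as an early response factor, stood higher in every dexamethasone pool than in either saline pool at 2.08 times the fitted level, but its difference missed the adjusted threshold. Cebpd had 173, 201, 102 and 129 CPM in dexamethasone pools 1 to 4, against 73.7 and 78.7 CPM in saline pools 1 and 2. The groups did not overlap, and pools 1 and 2 lay highest. The uncalled genes Cebpz and Spidr did not overlap between these groups either. The share of all genes without overlap is not given here, so the separation by itself is not read as a difference. The means were 151 ± 44.2 CPM (SD, n = 4) in dexamethasone pools and 76.2 ± 3.60 CPM (SD, n = 2) in saline pools, and edgeR's quasi-likelihood test gave a log2 fold change of 1.06 (SE 0.29) with an adjusted p of 0.0586. In that test 2.69% of 11356 genes passed the 0.05 threshold (1.95% higher and 0.740% lower in dexamethasone pools), and 0 of the 4 C/EBP genes were among them. At an unadjusted p under 0.05 stood 13.8% of the genes tested, with Cebpd at 0.00181 and Cebpa, which entered the test only through the group where it was high, at 0.0178. DESeq2 called 2.56% of 19201 genes and 1 of the 4, Cebpd, at an adjusted p of 0.0169.

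The pools also differed in cartilage RNA and sex, and the Cebpd value was refitted with each. Summed cartilage markers, 7 genes in the tables of 8 listed, had at most 375 CPM in dexamethasone pools, against 603 and 1443 CPM in saline pools. With the mean log2(CPM + 1) of those 7 genes as a covariate, the Cebpd log2 fold change was 0.27 with an edgeR adjusted p of 0.998. With Xist as a covariate, standing for the sex imbalance, it was 1.59 with an adjusted p of 0.0154. Each covariate was fitted alone on 6 pools. Treatment, sex and cartilage RNA cannot be told apart in these pools. In bulk RNA, fewer cells of a type and less RNA per cell cannot be told apart either.

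**Figure D1:**
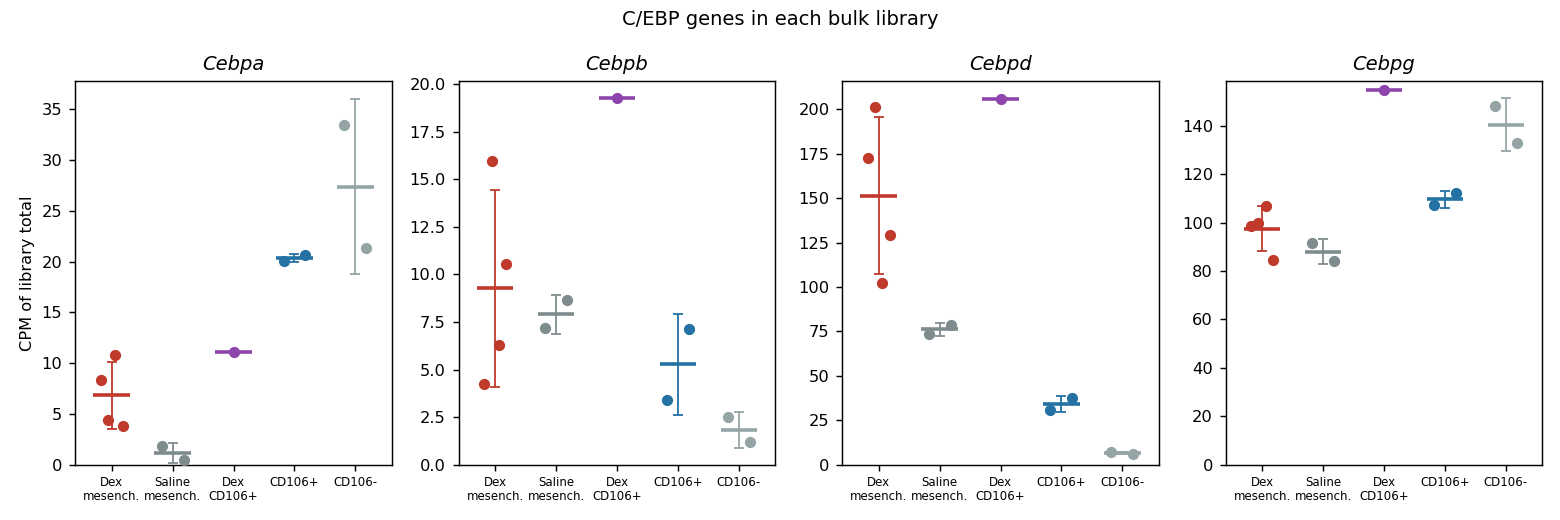
CPM of each C/EBP gene (y axis, 1 panel a gene) in each bulk library (points), by group on the x axis, with the mean as a line and the SD as a bar where a group has more than 1 library. Cebpd is at 102 to 201 CPM in the dexamethasone pools, above both saline pools, and at 206 CPM in the dexamethasone CD106+ library.

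**Figure D2:**
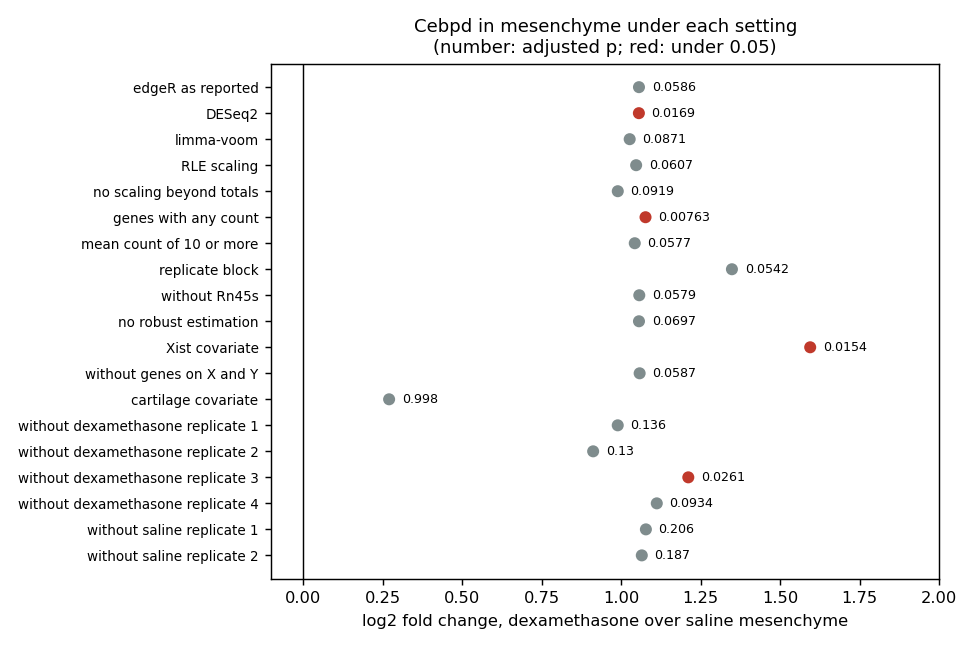
Log2 fold change of Cebpd, dexamethasone over saline mesenchyme (x axis), as reported and under each alternative setting (y axis), with the adjusted p beside each point. All points are above 0, and the adjusted p is under 0.05 in 4 of the 18 alternatives.

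Cebpa, the late adipogenic and epithelial member, was scarce in the sorted mesenchyme. It had 35, 13, 24 and 10 counts (8.29, 4.42, 10.8 and 3.77 CPM) in dexamethasone pools 1 to 4, against 3 counts and 1 count (1.80 and 0.411 CPM) in saline pools 1 and 2. Every dexamethasone pool lay above both saline pools, which by itself is not read as a difference here either. With the counts summed over the pools of each group, the ratio of CPM was 6.99. Its 95% exact interval of 2.63 to 26.2 covers counting error only and no spread between pools. In edgeR the log2 fold change was 2.71 (SE 1.04) with an adjusted p of 0.217, so it was not called. It was 4.03 without saline pool 1 and 1.92 without saline pool 2, and the adjusted p ran from 0.21 to 0.489 with 1 pool left out. Cebpa entered the test only through the dexamethasone group: 3 of 4 dexamethasone pools and 0 of the 2 saline pools exceeded the low-count limit of 3.93 CPM. Summed epithelial markers, where Cebpa is also used, were 31.7, 41.5, 323 and 255 CPM in dexamethasone pools 1 to 4, against 256 and 41.1 CPM in saline pools 1 and 2, and their part in the result was not tested.

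Cebpb, the partner of Cebpd in early adipogenesis and in the acute phase response, did not separate the pools. It had 4.26, 16.0, 6.30 and 10.6 CPM in dexamethasone pools 1 to 4, against 7.18 and 8.64 CPM in saline pools 1 and 2. The groups overlapped, with dexamethasone pools on both sides of the saline pools. The log2 fold change was 0.29 (SE 0.65, 95% interval -0.99 to 1.57; edgeR adjusted p = 0.914).

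Cebpg, the ATF4 partner, varied little between these pools. It had 98.5, 99.9, 107 and 84.5 CPM in dexamethasone pools 1 to 4, against 91.6 and 84.3 CPM in saline pools 1 and 2. Saline pool 2 lay near the lowest dexamethasone pool, and saline pool 1 lay between that pool and the other dexamethasone pools. The log2 fold change was 0.21 (SE 0.25, 95% interval -0.28 to 0.70; edgeR adjusted p = 0.805).

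In the CD106 sort, which sets a mesenchyme-rich fraction beside an epithelium-rich one, Cebpd was the one member called. It had 30.8 and 37.3 CPM in CD106+ libraries, against 7.01 and 6.06 CPM in CD106- libraries, with no overlap. The log2 fold change was 2.35 (SE 0.42; edgeR adjusted p = 0.00034), and the adjusted p stayed at or under 0.0103 in each of 14 alternatives, where the log2 fold change ran from 2.28 to 2.41. The call made 1 of 4 members, where 10.0% of 12364 genes tested were called, 6.67% higher and 3.35% lower in CD106+. Beside this, summed mesenchyme markers were 7386 and 14094 CPM in CD106+ libraries, against 1030 and 1428 CPM in CD106- libraries, and summed liver markers such as Alb were 481 and 1073 CPM in CD106+ libraries, against 36.2 and 112 CPM in CD106- libraries. The part of these cells in the Cebpd difference was not tested.

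The other members leaned in different directions across the sort without being called. Cebpb had 3.41 and 7.15 CPM in CD106+ libraries, against 2.50 and 1.17 CPM in CD106- libraries, on 7 to 51 counts a library (log2 fold change 1.48, SE 0.78; edgeR adjusted p = 0.308). The low-count limit of 1.78 CPM was exceeded by Cebpb in 2 CD106+ libraries but only 1 CD106- library. Cebpa had 20.1 and 20.6 CPM in CD106+ libraries, against 33.5 and 21.3 CPM in CD106- libraries (log2 fold change -0.46, SE 0.38; edgeR adjusted p = 0.602). Cebpg had 107 and 112 CPM in CD106+ libraries, against 148 and 133 CPM in CD106- libraries (log2 fold change -0.40, SE 0.26; edgeR adjusted p = 0.474). In each of these 3 the groups did not overlap. With 2 libraries a group this often happens without any difference, so it is not read as one. Summed epithelial markers were 2843 and 4477 CPM in CD106+ libraries, against 6552 and 5914 CPM in CD106- libraries.

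In the single dexamethasone CD106+ library Cebpd was at its highest bulk level. It had 206 CPM (95% exact Poisson interval 192 to 221) there, against 30.8 and 37.3 CPM in the 2 CD106+ libraries without a stated treatment. The log2 ratio was 2.56 on the log2(CPM + 1) scale. Cebpb had 19.3 CPM (15.1 to 24.2), against 3.41 and 7.15 CPM, a log2 ratio of 1.69. Cebpg had 155 CPM, against 107 and 112 CPM, a log2 ratio of 0.49. Cebpa ran the other way, with 11.1 CPM (7.99 to 15.0), against 20.1 and 20.6 CPM, a log2 ratio of -0.82. With 1 treated library there is no replicate check, and the intervals cover counting error only. Its counts also came in a table apart from the other CD106 libraries, so treatment and any difference in handling cannot be told apart. By the rule of a log2 ratio of at least 1 in either direction at a mean of 20 CPM, Cebpd passed, as did 24.6% of 6965 genes (9.71% higher and 14.9% lower).

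That library also differed in its cells. Endothelial markers summed to 2913 CPM in it, against 199 and 148 CPM in the other CD106+ libraries, with Pecam1 at 508 CPM, against at most 22.1 CPM. Leukocyte markers summed to 168 CPM, against 8.42 and 14.4 CPM, and liver markers to 6.86 CPM, against 481 and 1073 CPM. Epithelial markers were lower in sum, at 1912 CPM, against 2843 and 4477 CPM, but not evenly. Epcam was at 27.4 CPM, against 205 and 198 CPM, and Sftpc at 637 CPM, against 665 and 2458 CPM. Hopx, a marker of alveolar type 1 cells, was higher, at 57.5 CPM, against 47.1 and 53.0 CPM. The part of these cells in the C/EBP values was not tested. An edgeR fit over the 5 CD106 libraries, in which the lone library is assumed to vary like the others, gave Cebpd a log2 fold change of 2.74 (adjusted p = 5.8e-06) and Cebpb one of 2.02 (adjusted p = 0.0662). That fit called 13.4% of 13708 genes, and since the treated arm is 1 library it compares that library, not the treatment.

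**Figure D3:**
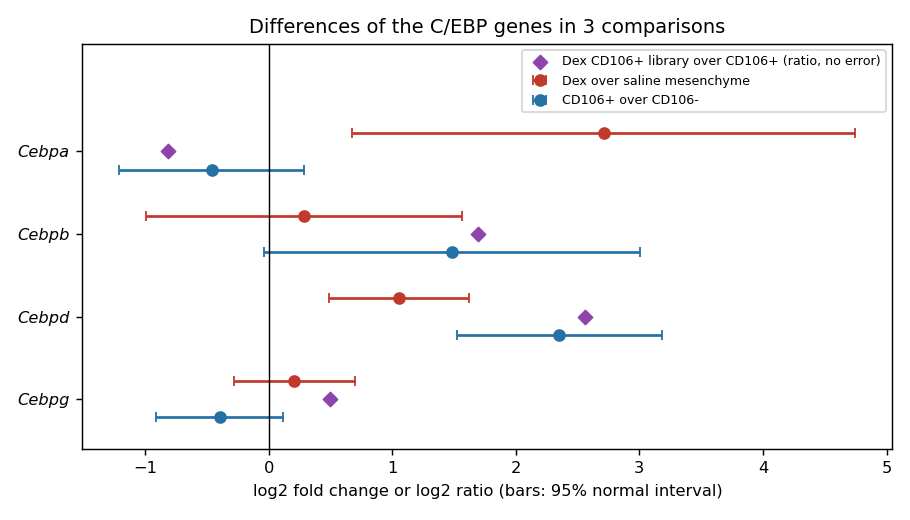
Log2 fold change of each C/EBP gene (y axis) for dexamethasone over saline mesenchyme and for CD106+ over CD106-, with 95% normal intervals as bars (x axis). Also on the x axis is the log2 ratio of the single dexamethasone CD106+ library over the other CD106+ libraries, with no error. Cebpd is above 0 in all 3 comparisons, and Cebpa is at 2.71 in mesenchyme, -0.46 across the CD106 sort and -0.82 in the single library.

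Cebpa differed in opposite directions in the dexamethasone CD106+ library and in the dexamethasone pools, though it was called in neither. Here effect means only the log2 difference between libraries, not a proven action of dexamethasone. The difference between the effects was tested in 1 edgeR fit of all 11 bulk libraries, a test added after the values were seen. The CD106+ effect minus the mesenchyme effect was -3.53 (SE 1.13; adjusted p = 0.109) on the log2 scale for Cebpa and 1.66 (SE 0.46; adjusted p = 0.0561) for Cebpd, where 2.52% of 14721 genes were called. It was 1.72 for Cebpb (adjusted p = 0.476) and 0.41 for Cebpg (adjusted p = 0.715), so 0 of the 4 members were called. The unadjusted p was 0.00475 for Cebpa and 0.00153 for Cebpd, and 14.8% of the genes had one under 0.05. One arm of this contrast is a single library. The time after injection is not stated for the dexamethasone CD106+ library. Its counts came in a table apart from those of the pools and of the other CD106 libraries.

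Across all groups of bulk libraries the order of levels differed by member. Mean Cebpd ran from 206 CPM in the dexamethasone CD106+ library through 151 CPM in dexamethasone pools, 76.2 CPM in saline pools and 34.1 CPM in CD106+ libraries to 6.53 CPM in CD106- libraries; the highest dexamethasone pool, at 201 CPM, was close to the CD106+ library, and the remaining neighbours in this order did not overlap. Mean Cebpa was instead highest in the groups where Cebpd was lowest, with 27.4 CPM in CD106- and 20.3 CPM in CD106+ libraries. It then fell in the same order as Cebpd, with 11.1 CPM in the dexamethasone CD106+ library, 6.82 CPM in dexamethasone pools and 1.10 CPM in saline pools. Neighbouring levels of Cebpa between the dexamethasone CD106+ library and the highest dexamethasone pool, 10.8 CPM, were also close. The Cebpb means were 19.3, 9.27, 7.91, 5.28 and 1.83 CPM in the dexamethasone CD106+ library, dexamethasone pools, saline pools, CD106+ and CD106- libraries. The dexamethasone pools overlapped the saline pools and the CD106+ libraries. The lower saline pool, at 7.18 CPM, lay just above the higher CD106+ library, at 7.15 CPM.

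The counts of Cebpd were not whole numbers, and its annotation overlaps a neighbour. Its counts were fractional in all 11 bulk libraries, while those of Cebpa, Cebpb and Cebpg were whole in each of them, and in the annotation Cebpd overlaps the DNA repair gene Spidr by 322 bases. Spidr had 74.7, 83.2, 87.3 and 66.5 CPM in dexamethasone pools 1 to 4, against 63.4 and 44.2 CPM in saline pools 1 and 2, and its log2 fold change was 0.59 (SE 0.29; edgeR adjusted p = 0.392). Across the CD106 sort Spidr had 49.2 and 45.7 CPM in CD106+ libraries, against 28.0 and 29.6 CPM in CD106- libraries (log2 fold change 0.67, SE 0.33; edgeR adjusted p = 0.25). Spidr thus leaned the same way as Cebpd by less in each comparison, and the part of the overlap in the fractional counts was not tested.

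The relatives outside the 4 members showed no call. Cebpe, a myeloid member, was at 0 counts in all 11 bulk libraries and in all 26 cells. Cebpz, a CCAAT-binding protein outside the bZIP class, had log2 fold changes of -0.26 (edgeR adjusted p = 0.793) in the pools and -0.09 (edgeR adjusted p = 0.914) across the sort. Ddit3, a stress-induced partner that blocks C/EBP binding, was too low to be tested in the pools.

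Among genes known to act with or on the C/EBP proteins, listed with earlier results of these data known, a few changed in the pools, beside 1.95% of all genes tested that rose, 0.740% that fell and an all-gene median log2 fold change of -0.01. Of 12 bZIP partners tested, 1 rose and 0 fell: Fosl2, an AP-1 subunit, had 245 to 482 CPM in dexamethasone pools, against 60.5 and 64.0 CPM in saline pools (log2 fold change 2.43, SE 0.31; edgeR adjusted p = 0.000173). The list of IL-6, STAT3 and TLR inputs to Cebpb and Cebpd holds inhibitors as well as activators. Of its 11 genes tested, 2 rose: Il6ra, the IL-6 receptor chain, at 2.23 and Nfkbia, the NF-kB inhibitor, at 1.98. The list median was 0.52. Il6ra had 155 to 226 CPM in dexamethasone pools, against 35.9 and 49.8 CPM in saline pools, and no dexamethasone pool overlapped a saline pool.

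Of 11 genes for C/EBP turnover and inhibition, 1 rose, Cdkn1a, the cell cycle inhibitor p21, at a log2 fold change of 2.95, and 1 fell, Id3, which sequesters partners of bHLH factors, at -1.54 (edgeR adjusted p = 0.0179). Id3 had 15.0 to 25.3 CPM in dexamethasone pools, against 64.0 and 65.0 CPM in saline pools. Of 15 adipogenic and lipofibroblast genes tested, 1 rose, Klf15 at 1.81, with a list median of 0.02, and of 7 amino acid response genes of C/EBP-ATF dimers 1 rose, Ddit4 at 2.61. None of 6 acute phase genes and none of 10 lung epithelial genes downstream of Cebpa passed the test. The 18 tested glucocorticoid targets, kept as a yardstick, had a median of 1.81, and 10 of them rose, with Nfkbia and Ddit4 also among the lists above.

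**Figure D4:**
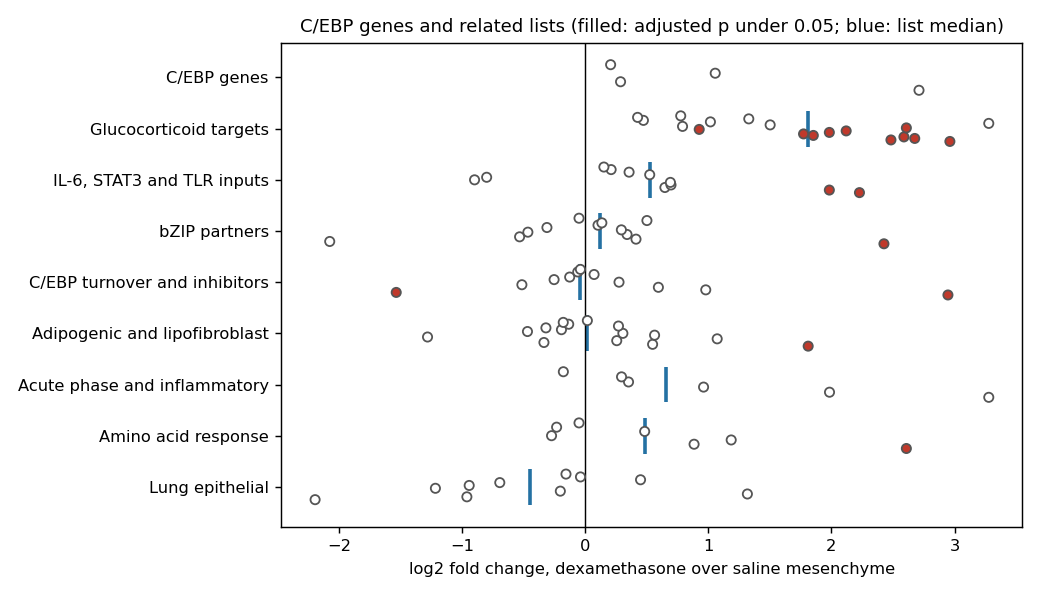
Log2 fold change, dexamethasone over saline mesenchyme (x axis), of the C/EBP genes and of 8 related gene lists (y axis), with filled points at an adjusted p under 0.05 and the list median as a blue line. The glucocorticoid targets have a median of 1.81, while the adipogenic and lipofibroblast genes have one of 0.02.

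Across the CD106 sort the lists were counted in the same way, beside 6.67% of all genes that rose, 3.35% that fell and an all-gene median of 0.05. Of 12 lung epithelial genes downstream of Cebpa, 6 fell and 0 rose in CD106+ libraries, Sftpb, a surfactant protein, at -1.28 and Lamp3 at -1.29 among them, with a list median of -0.88. Of 14 adipogenic and lipofibroblast genes, 3 rose, Zfp423, an adipocyte commitment factor, at 2.98, Plin2, a lipid droplet protein of lipofibroblasts, at 2.18 and Pdgfra at 1.56, and 2 fell, Klf5 at -1.34 and Scd1 at -1.07. Of 9 acute phase genes 3 rose, C3, Tnfaip6 and Fga, while the list median was -0.25, and Fga is also on the list of liver markers that were higher in CD106+ libraries. Of 11 IL-6, STAT3 and TLR inputs 1 rose, Il6ra at 3.26, and of 12 turnover genes and inhibitors 1 fell, Trib1 at -0.95. Of 12 bZIP partners 2 rose, Hlf at 1.20 and Creb3l1 at 0.95, and 1 fell, Atf3 at -1.48. Of 9 amino acid response genes 1 rose, Vldlr at 2.24, and of 18 glucocorticoid targets 2 rose and 2 fell.

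The genes whose levels were most like each member over the 11 bulk libraries were named by the smallest root mean square difference of centred log2(CPM + 1) over 6681 genes, as a description. For Cebpd they were Mmp19 (0.40), Ppap2b (0.40) and Sparcl1 (0.43), against a median of 1.81 over all those genes. Mmp19, a matrix metalloprotease, had 78.8 to 95.5 CPM in dexamethasone pools, against 35.8 and 41.1 CPM in saline pools, and 20.1 and 31.1 CPM in CD106+ libraries, against 4.80 and 5.21 CPM in CD106- libraries. For Cebpa they were Hopx (0.46), Perp (0.51) and Gcc1 (0.55), against a median of 1.33. Hopx, a marker of alveolar type 1 cells, had 19.2 to 23.0 CPM in dexamethasone pools, against 3.59 and 2.47 CPM in saline pools. For Cebpb they were Mocs2, B2m and Ctsl, and for Cebpg Rbm27, Il6st and Ctage5.

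In single cells 24 h after the injection the 4 genes were found in some cells and in uneven amounts. Neither group of cells comes with animals named, so each counts as 1 sample and no test was made. Depth differed too: the median cell had 852850 counts and 3508 genes in the dexamethasone group, against 1349765 counts and 5198 genes in the saline group. Cebpd averaged 38.6 CPM in dexamethasone cells and 16.7 CPM in saline cells, a log2 ratio of 1.16, with medians of 4.49 CPM in dexamethasone cells and 10.9 CPM in saline cells. The mean and the median thus point in opposite directions. Among dexamethasone cells the highest had 264 CPM and the next 153 CPM, against 61.8 CPM in the highest saline cell. The dexamethasone cell at 153 CPM held 52.8% of that group's Cebpd counts. The cell at 264 CPM was the shallowest, at 215623 counts, and its epithelial markers summed to 12378 CPM.

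The intervals that follow cover the sampling of cells within 1 sample only and say nothing of spread between animals. Cebpd had a count in 9 of 15 dexamethasone cells (60.0%, 95% Clopper-Pearson interval 32.3 to 83.7%), against 8 of 11 saline cells (72.7%, 39.0 to 94.0%). Thinned to 200000 counts a cell, with 0 cells left out, the expected shares were 47.8% in dexamethasone cells and 61.1% in saline cells. Cebpb had a count in 11 dexamethasone cells and 7 saline cells, with means of 14.5 CPM in dexamethasone cells and 6.74 CPM in saline cells. Cebpg ranged widely between cells: it reached 1009 CPM in a dexamethasone cell and 891 CPM in a saline cell, and had a count in 6 dexamethasone cells and 8 saline cells. All 4 members had a count together in 0 dexamethasone cells and 3 saline cells.

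Cebpa rested on 1 cell in each group. It had 82 counts (104 CPM) in 1 dexamethasone cell and none in the other 14, and 149 counts (120 CPM) in 1 saline cell, with 1 count in each of 2 further saline cells. Mesenchyme markers summed to 16627 CPM in the high dexamethasone cell and 26089 CPM in the high saline cell, and epithelial markers to 20.2 CPM in the high dexamethasone cell and 712 CPM in the high saline cell. The surfactant gene Sftpc made up 683 CPM of the last value, the highest Sftpc level among saline cells, while Epcam had no count in any of the 26 cells. In 1 dexamethasone cell none of the 4 members had a count, and its erythroid markers summed to 186700 CPM.

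**Figure D5:**
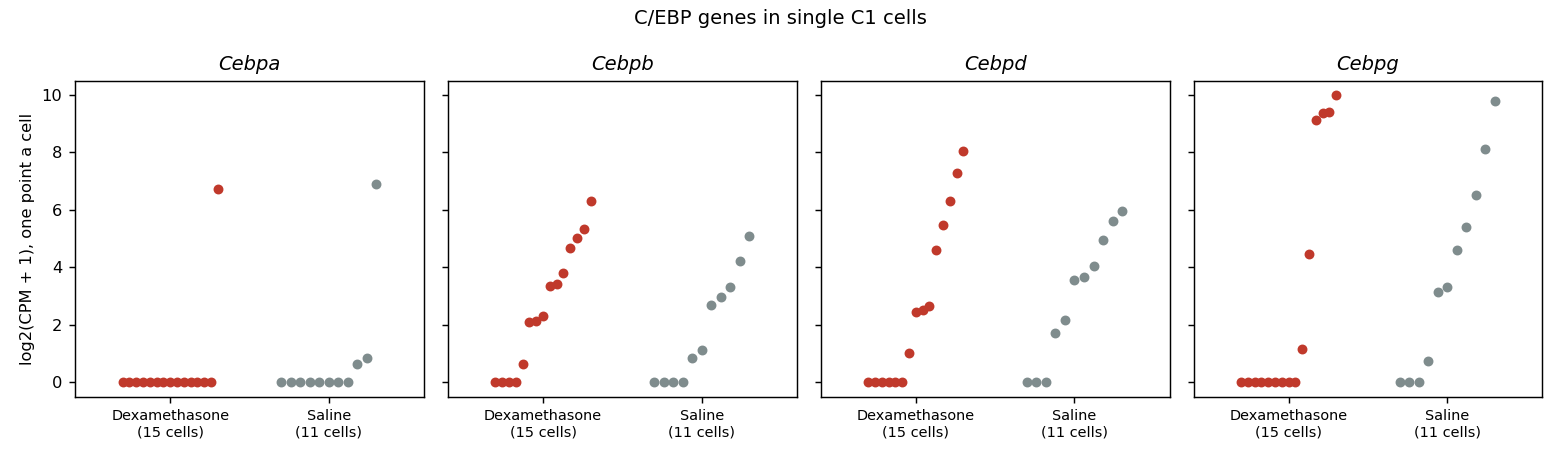
Level of each C/EBP gene in every single cell as log2(CPM + 1) (y axis), with dexamethasone and saline cells ordered by level within each group (x axis). Cebpa is above 1 in 1 cell of each group, and Cebpd reaches 264 CPM in dexamethasone cells and 61.8 CPM in saline cells.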

How the data were processed

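Expected counts per gene, as deposited by the authors in 4 tables, were rounded for the tests and divided by the library total for CPM; 5.35 to 9.21% of values in the bulk libraries were not whole. The submitters' processing notes name mm10, TopHat2 and Partek among their tools, with no roles, and the strand setting is not given in the sources used here. Levels of 11 bulk libraries and 26 cells were read; 4 ATAC samples were not analysed here. Comparisons with replicates used edgeR 4.0.16 in R 4.3.3 (quasi-likelihood, robust, TMM, filterByExpr, Benjamini-Hochberg over all genes tested, threshold 0.05). The single treated CD106+ library was compared by log2(CPM + 1). In simulated counts the edgeR fit recovered 9% of genes changed by a log2 of 1 and 54% of those changed by 2 in the mesenchyme design. The CD106 design gave 23% and 72%. False calls made 2 of 65 in mesenchyme and 6 of 101 in the sort. The simulation used each gene's mean and the fitted trend of spread, with no sex or cartilage difference between groups. Its shares therefore do not cover the differences of that kind in the real pools. limma 3.58.1 and DESeq2 1.42.0 served as alternatives. The members and gene lists were chosen with earlier results of these data known. The genes named are the members and their family, check genes, up to 3 genes of each list by smallest p that passed the test, and the 3 most alike each member; Pdgfra, Scd1, Spidr, Twist2 and Sftpc were chosen after their values were seen. Promoters, positions and names came from RefSeq GRCm38.p6, where 23065 of 24371 symbols matched. Replicate libraries differed beyond sampling noise (chi-square per degree of freedom 9.94 to 40.4).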

Additional observations from a re-analysis of the deposited data

Results flagged for a closer look

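The Cebpa log2 difference of the dexamethasone CD106+ library from the other CD106+ libraries, minus the dexamethasone over saline difference in mesenchyme, was -3.53. It stands here because the dexamethasone CD106+ library, at 11.1 CPM, lay below both other CD106+ libraries, while all 4 dexamethasone pools lay above both saline pools. The test of the difference gave an edgeR adjusted p of 0.109, so it did not pass. Summed epithelial markers were also lower in that library, at 1912 CPM, against 2843 and 4477 CPM in the other CD106+ libraries. Not every epithelial gene was lower, and their part in the Cebpa difference was not tested. The treated CD106+ arm is 1 library, and the saline pools held 3 counts and 1 count.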

How the results depend on the processing

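Cebpd across the CD106 sort kept its direction and its call in all 14 alternatives. Cebpd in mesenchyme kept its direction in 18 alternatives and passed the threshold in 4: DESeq2 (1.06), genes with any count (1.08), the Xist covariate (1.59) and without dexamethasone pool 3; leaving out 1 pool each gave 0.91 to 1.21. Cebpb in mesenchyme turned to -0.044 with the cartilage covariate, and leaving out 1 pool each gave -0.091 to 0.54, below 0 only without dexamethasone pool 2. The cause was not tested.

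The 306 genes called in mesenchyme became 491 with DESeq2, 598 with any count, 186 with the Xist covariate and 26 with the cartilage covariate, and 179 to 335 with 1 pool left out. The 1239 called across the sort became 755 in 1 fit of all 11 libraries and 546 to 2756 with 1 library left out. Same-numbered libraries did not deviate together (correlations of -0.04 and 0.09 in mesenchyme and 0.01 in the sort). With the replicate number as a block, 154 genes were called in mesenchyme and 1276 in the sort, and Cebpd had 1.35 (edgeR adjusted p = 0.0542) in mesenchyme.

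In the dexamethasone CD106+ library the Cebpa log2 ratio was -0.85 and -0.66 with pseudocounts of 0.5 and 5, -0.69 with TMM factors and -0.73 in the edgeR fit; Cebpg was 0.64 with TMM factors and 0.64 in that fit. In cells the Cebpa log2 ratio was -1.33 without cells above 100 CPM of Pecam1, and Cebpb exceeded 10 CPM in 33.3% of dexamethasone cells and 18.2% of saline cells. Precision is limited by 2 saline pools, by 1 treated CD106+ library, and by 1 to 47 counts a pool for Cebpa and Cebpb.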
